A study of Homo sapiens with 6 samples.

Results

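Tubulin isotype genes encode the alpha and beta subunits that pair to form microtubules. The 10 genes described here were TUBA1A, TUBA1B, TUBA1C and TUBA4A (alpha) and TUBB, TUBB2A, TUBB2B, TUBB3, TUBB4B and TUBB6 (beta), found by their symbol in the deposited count and FPKM tables. They matched 11 of 30987 entries of the count table, because TUBB3 has 2 entries. The genes were chosen with values of the same comparison in view, so their differences are given as a description, with no test. The libraries came from HepG2, a human liver cancer cell line, transfected with siRNA3 against PAIP1 (siPAIP1, 3 libraries) or with non-targeting control siRNA (Ctrl, 3 libraries) and harvested after 48 h. PAIP1 was targeted by 1 siRNA only, so an effect of the loss of PAIP1 and an effect particular to that siRNA cannot be told apart. Each group had 3 biological replicates, and paired-end libraries were made from poly(A) RNA.

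Cells carry several alpha and beta isotypes whose proteins are very similar along most of their length and differ mainly at their acidic tails. TUBA1A, TUBB2B and TUBB3 are known best from neurons, while TUBA1B, TUBA1C, TUBB and TUBB4B are found in most dividing cells. Tubulin is also known for controlling its own mRNA: when free tubulin is plentiful, the factor TTC5 reads the first amino acids of a tubulin chain as it leaves the ribosome, and with SCAPER and the CCR4-NOT deadenylase the mRNA is degraded.

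The start of the coding sequence is shown because it encodes the amino acids read in that control. The start codon and the next 3 codons are in capitals. Sequences are from the canonical transcripts of GENCODE release 44 on GRCh38, and run 5′ to 3′.
TUBA1A: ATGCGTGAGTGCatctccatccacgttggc
TUBA4A: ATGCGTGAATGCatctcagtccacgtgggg
TUBB: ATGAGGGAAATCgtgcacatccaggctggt
TUBB2A: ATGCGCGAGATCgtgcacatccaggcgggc
TUBB3: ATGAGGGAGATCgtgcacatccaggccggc
TUBB6: ATGAGGGAGATCgtgcacatccaggcgggc
TUBA1B and TUBA1C had the same 30 bases as TUBA1A. In these transcripts all 4 alpha genes encoded arginine, glutamate and cysteine after the start, and the 6 beta genes encoded arginine, glutamate and isoleucine. The TUBB3 line is from ENSG00000258947, the entry with few counts. The canonical transcript of the other TUBB3 entry, ENSG00000198211, which held most of the counts, starts with other codons and does not encode these amino acids there.

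The end of the coding sequence is shown for 4 of the genes because the tails set the isotypes apart. The last codon before the stop is in capitals.
TUBA1C: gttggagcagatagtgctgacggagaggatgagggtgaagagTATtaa
TUBA4A: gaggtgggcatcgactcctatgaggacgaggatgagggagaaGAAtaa
TUBB: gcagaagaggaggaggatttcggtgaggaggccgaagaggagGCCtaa
TUBB3: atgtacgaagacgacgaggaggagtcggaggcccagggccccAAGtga
TUBA1C ended in tyrosine, which is removed and put back on the protein in cells. TUBA4A ended in glutamate and so encoded no such tyrosine. The whole coding sequences of TUBA1A and TUBA1B were identical at 97.2% of 1356 aligned bases.

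The deposited counts totalled 29313211 to 34157368 per siPAIP1 library and 31045623 to 34659866 per Ctrl library. For the comparison, counts were scaled by TMM in edgeR, and 15528 genes with enough counts were tested, among them all 11 entries. CPM below is the count scaled to a common library size, and SE is the standard error of a log2 fold change. PAIP1 had 954, 761 and 606 counts in siPAIP1 replicates 1 to 3, against 3158, 2703 and 2743 in Ctrl, and fell by 1.93 on the log2 scale in the quasi-likelihood test of edgeR (SE 0.13, adjusted p = 0.000918). One library stood apart: of 9247 genes at 10 CPM or more on average, 357 were more than 2-fold higher in siPAIP1 replicate 3 than in the rest of its group, against at most 7 in any other library. Values without it are given for some genes only. The 8 hepatocyte markers summed to 1508.8 to 2339.9 FPKM in siPAIP1 libraries and 2663.0 to 2831.1 in Ctrl, and 4 of them lay below every Ctrl library in all siPAIP1 libraries. Their part in the tubulin values was not tested. Markers of fibroblasts and endothelium were under 1 FPKM in all libraries. The 3 of 5 neuronal markers found summed to 1.39 to 1.88 FPKM in siPAIP1 and 1.58 to 2.01 in Ctrl. Most of this was SYN1, at 1.28 to 1.79 FPKM in siPAIP1 and 1.47 to 1.9 in Ctrl, while RBFOX3 was at or near 0. Of the leukocyte markers, PTPRC had at most 1 count in a library and LYZ had 181.61 to 268.93 FPKM in siPAIP1 and 259.31 to 286.32 in Ctrl. In bulk libraries, fewer cells that express a gene and less of its RNA per cell cannot be told apart.

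TUBA1A had the largest difference of the 10 genes. It encodes an alpha-tubulin that is abundant in developing neurons, and its gene is at 49184686-49189080 on chromosome 12 (GRCh38, minus strand). Its CPM was 185, 189 and 164 in siPAIP1 replicates 1 to 3, against 65.6, 59.1 and 77.1 in Ctrl replicates 1 to 3. The lowest siPAIP1 library was over 2-fold above the highest Ctrl library. The means were 179 ± 13.3 in siPAIP1 and 67.3 ± 9.14 in Ctrl (SD, n = 3 each), a log2 fold change of 1.41 (SE 0.11) or 2.67-fold. It was the only one of the 11 entries with a difference of at least 2-fold.

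The other 3 alpha genes stood nearer to Ctrl. TUBA1B, the main alpha-tubulin gene of these cells by FPKM, had 1606.6, 1535.4 and 1320.8 CPM in siPAIP1 and 1368.0, 1100.9 and 1353.9 CPM in Ctrl. The groups overlapped, because siPAIP1 replicate 3 lay below Ctrl replicates 1 and 3 (log2 fold change 0.22, SE 0.12; 0.30 without siPAIP1 replicate 3). TUBA1C, a neighbour of TUBA1A that overlaps it on the opposite strand, had 1017.2, 1009.1 and 875 CPM in siPAIP1 and 832, 765 and 858 CPM in Ctrl (log2 fold change 0.24, SE 0.09; 0.30 without siPAIP1 replicate 3), with no overlap. TUBA4A had 14.3, 14.0 and 10.5 CPM in siPAIP1 and 18.3, 15.4 and 21.3 CPM in Ctrl. It was the only entry below 0 (log2 fold change -0.50, SE 0.16; -0.37 without siPAIP1 replicate 3), and all siPAIP1 libraries lay below all Ctrl libraries. TUBA4B, which lies on the opposite strand and overlaps TUBA4A, was chosen after its values were seen. Its counts were 73, 74 and 60 in siPAIP1 and 174, 156 and 184 in Ctrl. Whether counting used strand is not given in the sources used here. Without strand, reads from the stretch shared by overlapping genes, such as this pair, or TUBA1A and TUBA1C, cannot be told apart. TUBA1A and TUBA1C share only 49188736 to 49189080 on chromosome 12, where TUBA1C starts at 49188736 and runs to 49274600. Outside that stretch, other genes also overlap them on the opposite strand, and the limit holds there too. TUBA1A overlaps the non-coding TUBA1B-AS1, with 165, 222 and 175 counts in siPAIP1 and 137, 125 and 159 in Ctrl. TUBA1C overlaps, among others, the non-coding ENSG00000258232, with 116, 123 and 102 counts in siPAIP1 and 81, 59 and 77 in Ctrl. These non-coding genes were chosen after their values were seen.

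**Figure D1:**
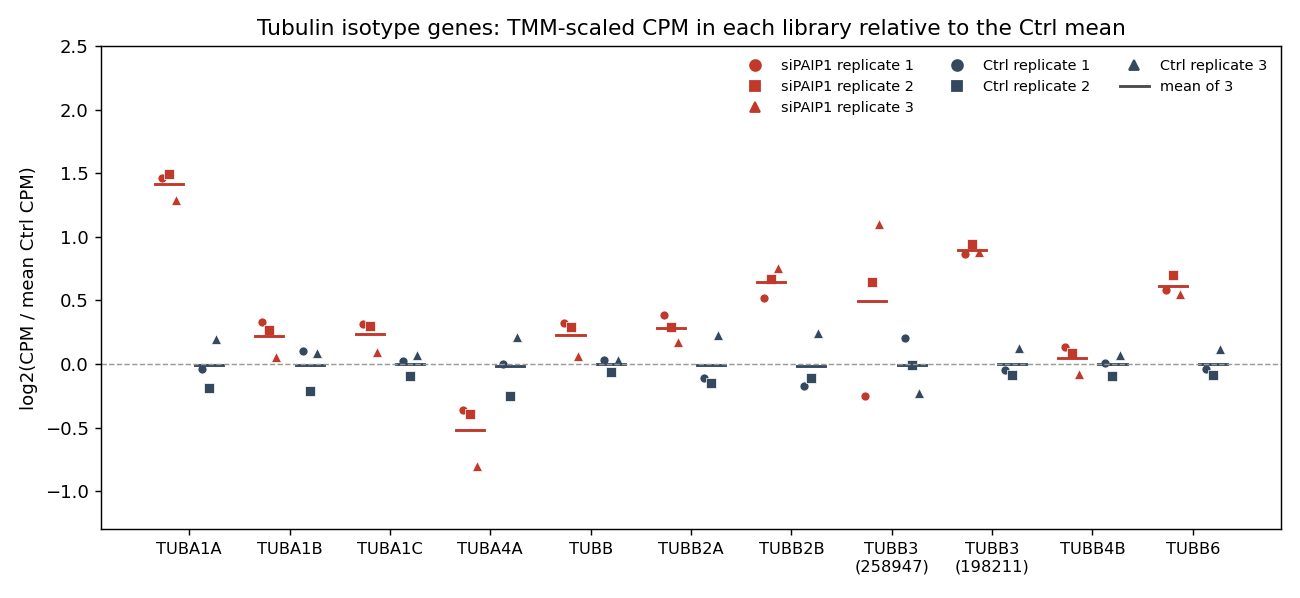
Each of the 11 tubulin isotype entries in the 6 libraries, as log2 of CPM over the mean Ctrl CPM (vertical axis); points are libraries and bars are means of 3. The TUBA1A points of siPAIP1 are the highest of siPAIP1, and only TUBA4A lies below Ctrl in all 3 siPAIP1 libraries.

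Among the beta genes, TUBB3 had the largest difference. TUBB3 encodes the beta-tubulin widely used as a marker of neurons. The entry with most of its counts (ENSG00000198211.8) had 395, 415 and 399 CPM in siPAIP1 and 209, 204 and 236 CPM in Ctrl. Every siPAIP1 library lay above every Ctrl library, and the log2 fold change was 0.90 (SE 0.08). In GENCODE release 44 this identifier is a separate gene on the plus strand of chromosome 16 at 89919165-89936092, overlapping MC1R and TUBB3. The second entry (ENSG00000258947.6) is TUBB3 itself in that release, at 89921392-89938761. It held only 21, 40 and 47 counts in siPAIP1 and 28, 24 and 19 in Ctrl, with overlapping groups. Its log2 fold change of 0.59 (SE 0.355) turned on single libraries, and was 0.26 without siPAIP1 replicate 3 and 0.88 without siPAIP1 replicate 1. Of 1607 windows of 100 bases in the canonical TUBB3 transcript, 92.5% also occur in a transcript of another gene, 1487 of them in the first entry, so its counts may hold TUBB3 reads. The neighbour MC1R had 1261, 1336 and 1216 counts in siPAIP1 and 1169, 1070 and 1106 in Ctrl, and did not pass the test of edgeR (log2 fold change 0.15, SE 0.08, adjusted p = 0.241). It was chosen after its values were seen.

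TUBB2B and TUBB6 were also above Ctrl in every siPAIP1 library. TUBB2B, a beta-tubulin of developing brain, had 27.3, 30.3 and 32.1 CPM in siPAIP1 and 16.9, 17.6 and 22.6 CPM in Ctrl (log2 fold change 0.65, SE 0.13). TUBB6 is a divergent beta isotype and the only member with no 100-base window in another gene. It had 80.7, 87.4 and 79.0 CPM in siPAIP1 and 52.3, 50.6 and 58.5 CPM in Ctrl (log2 fold change 0.61, SE 0.08). Neither gene's groups overlapped. On the opposite strand TUBB6 overlaps AFG3L2 and TUBB2B overlaps PSMG4, both chosen after their values were seen. AFG3L2 had 2739, 2779 and 2315 counts in siPAIP1 and 1932, 1837 and 1709 in Ctrl. PSMG4 had 1034, 993 and 1027 counts in siPAIP1 and 772, 773 and 693 in Ctrl. Reads from these shared stretches cannot be told apart without strand, and their part in the values was not tested. TUBB2A, almost the same gene as TUBB2B (98.1% identity over 1338 aligned coding bases), had 88.7, 82.9 and 76.5 CPM in siPAIP1 and 62.8, 61.1 and 79.7 CPM in Ctrl. The groups overlapped through siPAIP1 replicate 3 and Ctrl replicate 3 (log2 fold change 0.29, SE 0.12). As 55.6% of TUBB2A windows and 48.7% of TUBB2B windows also occur in another gene, and only uniquely mapped reads were used, the values of this pair are uncertain.

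TUBB and TUBB4B, the main beta genes, had the smallest log2 fold changes of the beta genes with all 6 libraries in the fit. Without Ctrl replicate 1, that of TUBB2A (0.23) was as small as that of TUBB (0.24). TUBB had 3768.8, 3684.3 and 3155.3 CPM in siPAIP1 and 3077.7, 2887.2 and 3077.1 CPM in Ctrl, so siPAIP1 replicate 3 stood just above the highest Ctrl library (log2 fold change 0.23, SE 0.09; 0.30 without siPAIP1 replicate 3). TUBB4B had 830, 804 and 718 CPM in siPAIP1 and 764, 712 and 798 CPM in Ctrl. Its groups overlapped, and the log2 fold change of 0.05 (SE 0.09; 0.10 without siPAIP1 replicate 3) was smaller than its SE.

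Over the 11 entries, 10 had a positive log2 fold change, and the median was 0.29, beside 0.034 over all genes tested. In 6 entries all siPAIP1 libraries lay above all Ctrl libraries, in 1 (TUBA4A) all lay below, and 4 overlapped. Of all genes tested, 19.0% had every siPAIP1 library above every Ctrl library and 17.6% every one below. As the genes were chosen from this contrast, nothing is read from these counts. In the deposited FPKM, 4 entries were above without overlap, 1 below and 6 overlapped, because siPAIP1 replicate 3 had low FPKM (its sum was 412788 over all genes, against 480363 to 499948 elsewhere).

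FPKM is the number of fragments scaled by exon length and by library, so levels of different isotypes can be set side by side. As only uniquely mapped reads were used, genes that share sequence may be undercounted to different degrees: 37.2% of TUBA1B windows, 21.2% of TUBA1A windows and 12.3% of TUBA1C windows of 100 bases also occur in another gene, and the order and shares below carry this limit. In Ctrl the order was TUBB, TUBA1B, TUBB4B, TUBA1C, TUBB3, TUBB2A, TUBA1A, TUBB6, TUBB2B and TUBA4A, with no overlap between neighbours in this order. TUBB3 here is the entry ENSG00000198211.8, and the small TUBB3 entry lay below TUBA4A. TUBB had 967 ± 140 FPKM in siPAIP1 and 806 ± 37.6 FPKM in Ctrl (SD, n = 3 each), while TUBA4A had 4.46 ± 0.936 FPKM in siPAIP1 and 6.16 ± 1.08 FPKM in Ctrl. In siPAIP1, TUBB and TUBA1B overlapped. TUBA1A stood above TUBB2A in siPAIP1, with 67.20, 69.47 and 54.58 FPKM against 52.25, 49.27 and 41.16 FPKM, while in Ctrl it stood below, with 22.73, 20.31 and 27.22 FPKM against 35.21, 34.03 and 45.50 FPKM. The 4 genes TUBB, TUBA1B, TUBB4B and TUBA1C together made up 89.0% to 90.2% of the summed FPKM of the members in siPAIP1 and 92.4% to 93.5% in Ctrl.

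**Figure D2:**
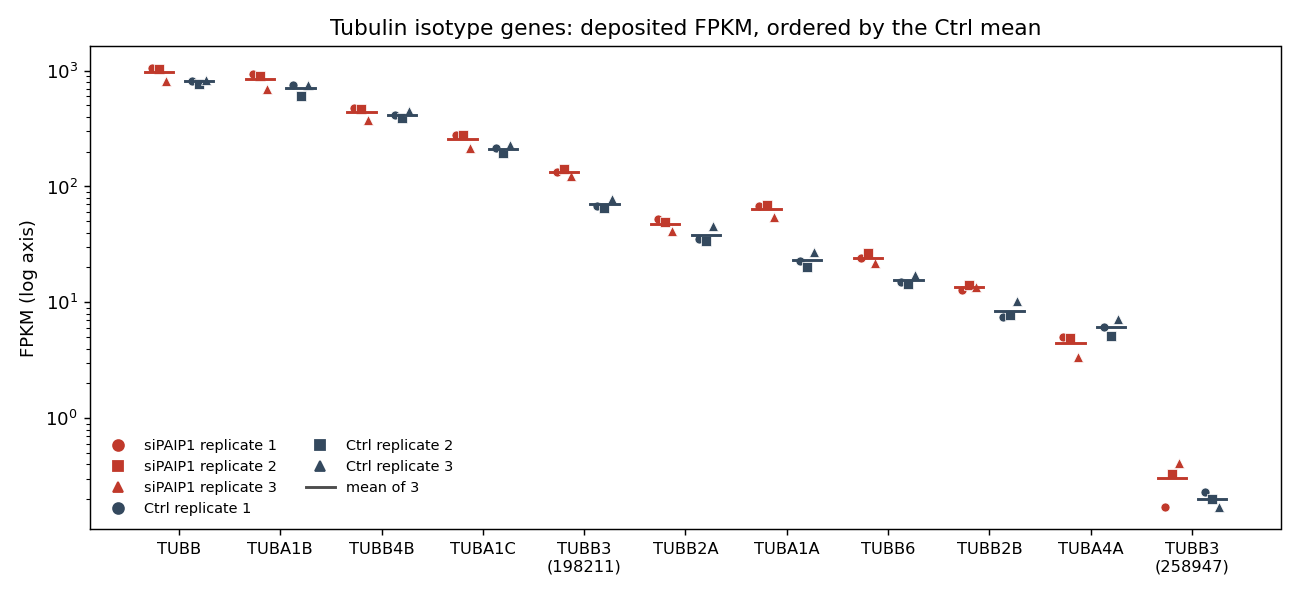
Deposited FPKM of the 11 tubulin isotype entries on a log axis, ordered by the mean of Ctrl; points are libraries and bars are means of 3. TUBB and TUBA1B lead in both groups, and TUBA1A stands above TUBB2A only in siPAIP1.

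The summed FPKM of the 4 alpha genes was 1276.5, 1245.2 and 971.0 in siPAIP1 and 995.7, 822.4 and 1018.4 in Ctrl, a ratio of means of 1.23. The 6 beta genes summed to 1754.4, 1737.1 and 1382.3 in siPAIP1 and 1362.4, 1271.0 and 1428.8 in Ctrl, a ratio of 1.20. In both pools siPAIP1 replicate 3 fell inside the Ctrl range, and without it the ratios were 1.33 and 1.29. The sum of alpha over that of beta was 0.702 to 0.728 in siPAIP1 and 0.647 to 0.731 in Ctrl.

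Shares within a pool do not depend on how a library is scaled. TUBA1A made up 5.26%, 5.58% and 5.62% of the alpha pool in siPAIP1, against 2.28%, 2.47% and 2.67% in Ctrl, a difference of 3.01 percentage points between means. TUBA1B took a smaller share in siPAIP1 (72.1% ± 0.548) than in Ctrl (74.3% ± 1.23; SD, n = 3 each), while that of TUBA1C overlapped. TUBA4A took 0.394%, 0.399% and 0.348% in siPAIP1, against 0.615%, 0.620% and 0.713% in Ctrl. In the beta pool the first TUBB3 entry made up 7.63%, 8.15% and 8.92% in siPAIP1 and 4.95%, 5.14% and 5.42% in Ctrl. TUBB4B made up 27.2%, 26.8% and 27.2% in siPAIP1 and 30.7%, 30.4% and 31.1% in Ctrl. The share of TUBB, by contrast, differed by -0.114 percentage points and overlapped. TUBB2B and TUBB6 had higher shares in every siPAIP1 library than in any Ctrl library.

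**Figure D3:**
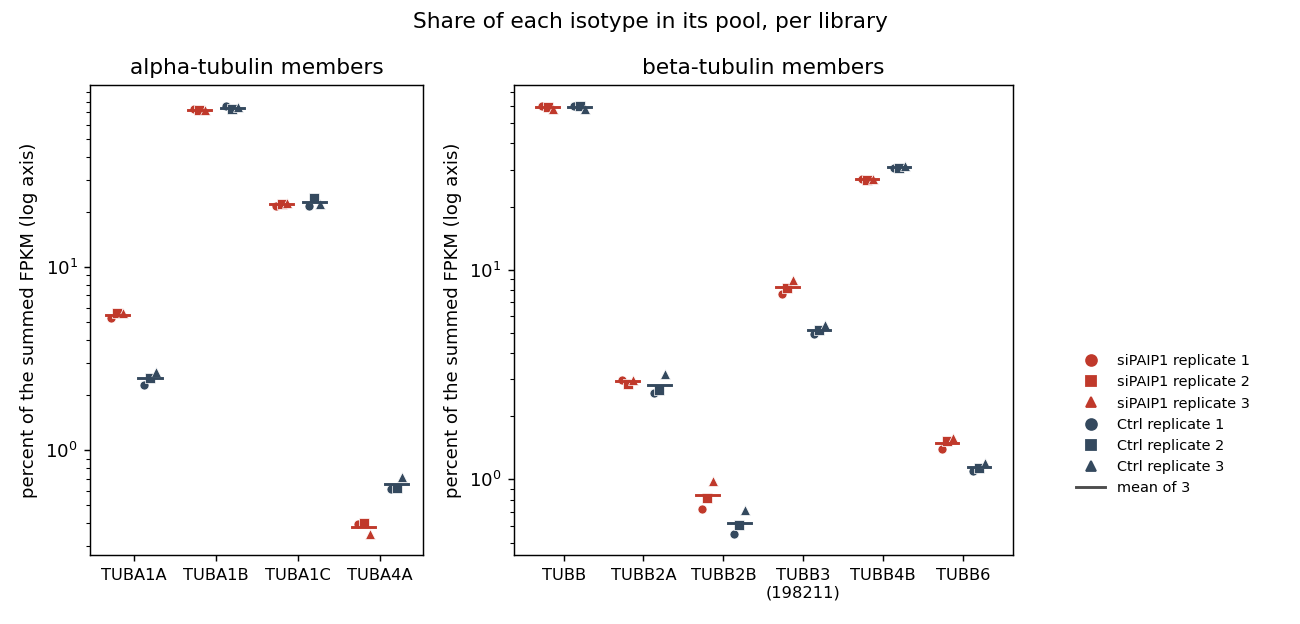
Share of each isotype in the summed FPKM of its alpha or beta pool (percent, log axis), with the small TUBB3 entry left out of the plot; points are libraries and bars are means of 3. TUBA1A and the TUBB3 entry shown (ENSG00000198211) take larger shares in siPAIP1 and TUBA4A and TUBB4B smaller ones, while TUBB is level.

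The promoters of TUBA1A and TUBA1B are shown because these genes are close in coding sequence, while their log2 fold changes were 1.41 and 0.22. The windows are the 250 bases before the RefSeq start (GRCh38.p14, minus strand) at chr12:49189081-49189330 and chr12:49131396-49131645. Capitals mark matches on either strand to the CCAAT box (CCAAT), to the GC box (GGGCGG) and to the TATA box, which was searched as TATAAA and as TATATA.
TUBA1A: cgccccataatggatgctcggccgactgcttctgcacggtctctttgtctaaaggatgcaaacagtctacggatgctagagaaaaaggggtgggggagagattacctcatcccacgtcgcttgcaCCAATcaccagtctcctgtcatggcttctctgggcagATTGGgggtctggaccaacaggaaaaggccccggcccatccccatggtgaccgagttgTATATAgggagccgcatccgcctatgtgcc
TUBA1B: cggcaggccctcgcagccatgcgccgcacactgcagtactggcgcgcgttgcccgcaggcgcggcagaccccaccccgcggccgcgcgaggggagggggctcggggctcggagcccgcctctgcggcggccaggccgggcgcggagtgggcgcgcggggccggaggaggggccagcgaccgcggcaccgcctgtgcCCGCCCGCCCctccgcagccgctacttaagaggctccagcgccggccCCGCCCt
The TUBA1A window held 2 CCAAT boxes and 1 TATA box and was 56.4% G or C. The TUBA1B window held 3 GC boxes, of which 2 overlap, and was 81.2% G or C. Of 35116 RefSeq windows of the same length, 32.0% held a CCAAT box, 42.6% a GC box and 12.8% a TATA box. The window of TUBB4B, whose log2 fold change was 0.05, was much like that of TUBA1A. It held 3 CCAAT boxes and 1 TATA box and was 56.8% G or C. Windows of the other members are not shown. These matches describe the letters only, and whether they bear on the fold changes was not tested.

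The question of whether genes that make, fold, modify or bind tubulin also changed was put to 6 lists, of which 104 of 106 genes were found and 92 tested. The lists were drawn up with earlier results of these data known, so their calls and adjusted p values are no independent test. Of the 92, 7 rose and 3 fell at an adjusted p under 0.05 in edgeR's quasi-likelihood test, or 7.61% and 3.26%, beside 5.68% of all genes tested that were called higher and 6.20% called lower. The median log2 fold change was 0.06, beside 0.034 over all genes tested. The counts turned on single libraries. For the fits that leave 1 library out, the share called of all genes tested is not given here. Nothing about the lists is therefore read from the counts that follow. Without siPAIP1 replicate 3, 20 rose and 7 fell; without siPAIP1 replicate 2, 3 rose and 2 fell; and without Ctrl replicate 1, 2 or 3, only 1, 2 and 1 rose and 1 fell each time.

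Among the other tubulin genes, 1 of 8 tested fell, or 12.5%, beside 6.20% of all genes tested. TUBB1, a beta-tubulin known from platelets, had 3.32, 2.83 and 2.69 CPM in siPAIP1 and 7.28, 7.96 and 7.48 CPM in Ctrl (log2 fold change -1.36, SE 0.13, adjusted p = 0.00185). It kept an adjusted p under 0.05 in all 16 other fits. The gamma-tubulin genes TUBG1 and TUBG2, whose products start new microtubules, had log2 fold changes of 0.10 and 0.16, and TUBD1 and TUBE1, of the centriole, had 0.16 and -0.06. TUBA8, TUBAL3 and TUBB4A, tubulins of low level here, had log2 fold changes of -0.18, 0.45 and -0.69. None of these 7 passed the test.

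Of the genes of tubulin mRNA autoregulation, TTC5 had a log2 fold change of 0.00 (SE 0.10, adjusted p = 0.999) and a CPM of 18.0, 18.2 and 16 in siPAIP1 and 18.9, 16 and 17.2 in Ctrl. SCAPER, which links TTC5 to the deadenylase, had 6.56, 7.38 and 7.76 CPM in siPAIP1 and 4.91, 5.22 and 5.71 CPM in Ctrl (log2 fold change 0.45, SE 0.12, adjusted p = 0.0477), but was not called with RLE scaling or DESeq2, nor when any 1 library other than siPAIP1 replicate 3 was left out (adjusted p up to 0.18). CNOT1, CNOT10 and CNOT11, subunits of CCR4-NOT, had log2 fold changes of -0.14, 0.11 and -0.30, and none passed the test. CNOT1 and CNOT11 lay below every Ctrl library in all siPAIP1 libraries, as did 17.6% of all genes tested.

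**Figure D4:**
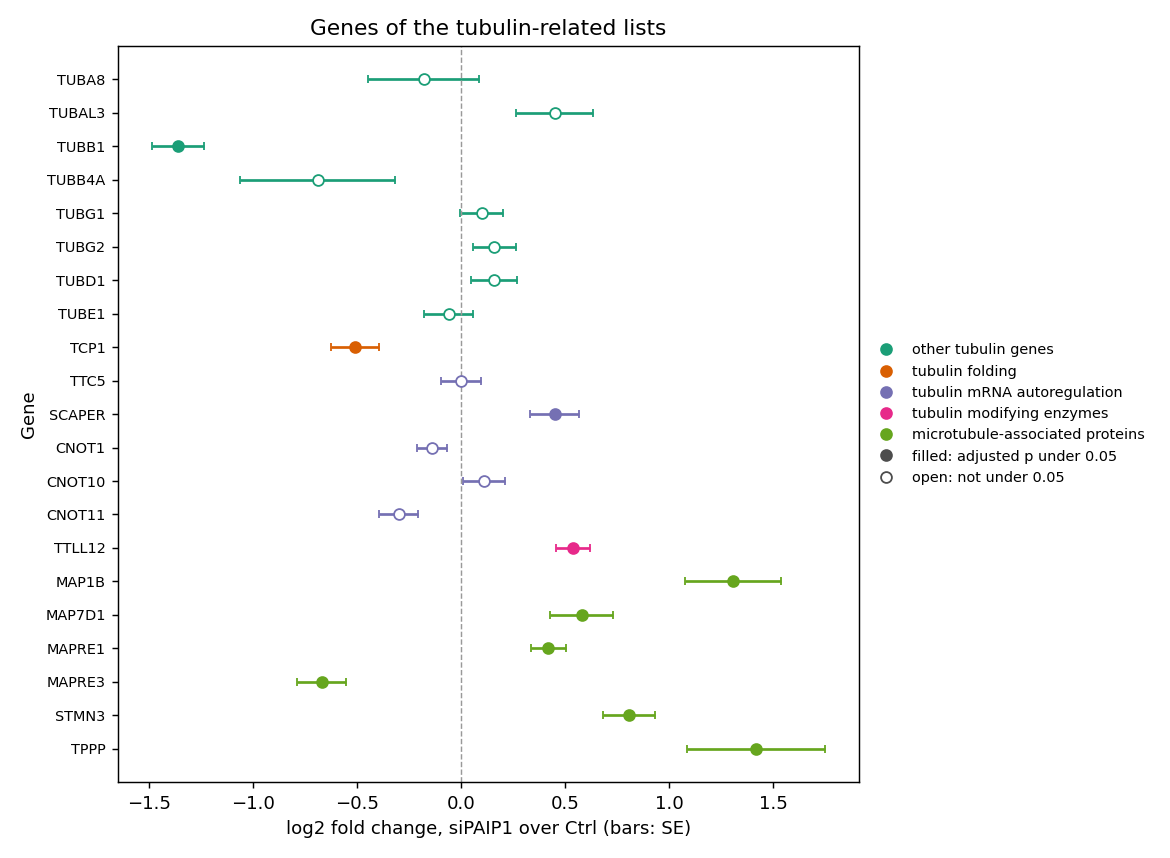
Log2 fold changes of siPAIP1 over Ctrl with SE for the tested genes of the other tubulin and autoregulation lists and for the called genes of the other lists; filled points passed an adjusted p under 0.05. TUBB1 lies lowest at -1.36 and TPPP highest at 1.42.

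In the folding and modifying lists, the shares called lay near or below those of all genes tested. Of 21 genes for prefoldin, the chaperonin and the tubulin cofactors, only TCP1 was called. It fell, so 4.76% of the list was called lower, beside 6.20% of all genes tested. TCP1, a chaperonin subunit, had 359, 349 and 275 CPM in siPAIP1 and 495, 442 and 467 CPM in Ctrl (log2 fold change -0.51, SE 0.11, adjusted p = 0.0292), and was not called without siPAIP1 replicate 2 or without any 1 Ctrl library (adjusted p up to 0.123). None of the 10 genes of the gamma-tubulin ring complex was called. Of 17 modifying enzymes tested, those not called had log2 fold changes of up to 0.95 in size. In this list 1 gene rose, or 5.88%, beside 5.68% of all genes tested. This was TTLL12, a member of the tubulin tyrosine ligase-like family, with 139, 140 and 162 CPM in siPAIP1 and 99.0, 103 and 101 CPM in Ctrl (log2 fold change 0.54, SE 0.08, adjusted p = 0.0083); without Ctrl replicate 1 or Ctrl replicate 3 its adjusted p was 0.0605 and 0.0581.

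Microtubule-associated proteins, the longest list, held most of the calls, with 5 of 31 higher and 1 lower. These were 16.1% and 3.23% of the list, beside 5.68% and 6.20% of all genes tested. STMN3, a stathmin that binds free tubulin, had 14.4, 15.6 and 17.5 CPM in siPAIP1 and 9.70, 9.62 and 7.65 CPM in Ctrl (log2 fold change 0.81, SE 0.13, adjusted p = 0.00861), and kept an adjusted p under 0.05 in all 16 other fits, though its change was under 2-fold. MAP1B, which stabilises microtubules in neurons, had 73.1, 73.3 and 131 CPM in siPAIP1 and 36.3, 41.3 and 34.0 CPM in Ctrl (log2 fold change 1.31, SE 0.23, adjusted p = 0.0136). The highest siPAIP1 value was replicate 3, and the log2 ratio of the mean of replicates 1 and 2 to Ctrl was 0.98. Leaving out any 1 Ctrl library raised the adjusted p of MAP1B to 0.0561 to 0.0841.

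The end-binding genes went in opposite directions. MAPRE1, which encodes a protein of growing microtubule ends, had 328, 320 and 287 CPM in siPAIP1 and 245, 221 and 232 CPM in Ctrl (log2 fold change 0.42, SE 0.08, adjusted p = 0.0193). MAPRE3, its relative, had 4.11, 4.75 and 4.01 CPM in siPAIP1 and 6.41, 6.88 and 7.19 CPM in Ctrl (log2 fold change -0.67, SE 0.12, adjusted p = 0.0141). TPPP and MAP7D1 were chosen after their values were seen. TPPP, which promotes tubulin polymerisation, was at 0.816, 1.14 and 1.19 CPM in siPAIP1 and 0.569, 0.302 and 0.295 CPM in Ctrl (log2 fold change 1.42, SE 0.33, adjusted p = 0.0349), values of few counts. Of the 10 called genes, only TUBB1 and STMN3 kept an adjusted p under 0.05 in every other fit that gave a value. For MAPRE1, MAPRE3, TPPP and MAP7D1 (70.3, 67.9 and 100 CPM in siPAIP1, 51.2, 56.8 and 51.3 CPM in Ctrl, log2 fold change 0.58, or 0.38 without siPAIP1 replicate 3), leaving out any 1 Ctrl library ended the call, with adjusted p values up to 0.103, 0.0712, 0.151 and 0.185. Leaving out siPAIP1 replicate 1 or 2 also ended it for MAPRE1 and MAP7D1, and siPAIP1 replicate 2 for TPPP.

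The library siPAIP1 replicate 3 was set beside the other siPAIP1 libraries for these genes and the tubulins. Its log2 ratio to Ctrl was above that of replicates 1 and 2 for 21 of 31 microtubule-associated genes, with list medians of 0.33 in replicate 3 and 0.12 in replicates 1 and 2. For the isotype genes it was above in only 2 of 11 entries, with medians of 0.17 and 0.31. Over all genes tested the medians were 0.029 and 0.003. The part of this library's difference in the calls of microtubule-associated genes was not tested beyond leaving it out.

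**Figure D5:**
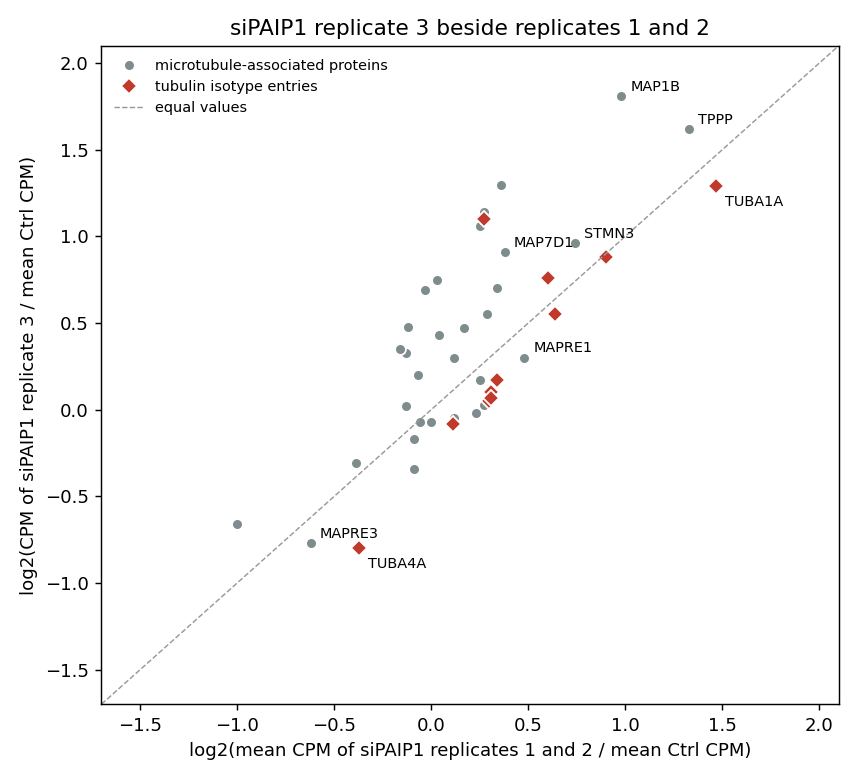
Each microtubule-associated gene (circles) and tubulin isotype entry (diamonds) by its log2 CPM ratio to Ctrl in siPAIP1 replicates 1 and 2 (horizontal axis) and replicate 3 (vertical axis). Most circles lie above the line of equal values and most diamonds on or below it.

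Of 10 alpha and beta tubulin pseudogenes in the count table, TUBBP5 held 243, 262 and 263 counts in siPAIP1 and 283, 290 and 268 in Ctrl (log2 fold change -0.16, SE 0.11, adjusted p = 0.361), TUBB7P held 4 to 19 counts and TUBBP1 3 to 7. The 10 together held 278 to 301 counts in siPAIP1 libraries and 306 to 315 in Ctrl.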

How the data were processed

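Poly(A) RNA of 3 siPAIP1 and 3 Ctrl HepG2 libraries was sequenced. The deposited counts are whole fragments per gene, made by the authors from reads trimmed with FASTX-Toolkit and aligned uniquely to GRCh38 with TopHat2; the deposited FPKM were computed by the authors from uniquely mapped fragments. Neither the counting tool nor the annotation release is given in the sources used here. Members and gene lists were chosen with earlier results of these data known. Counts were fitted in R 4.3.3 with edgeR 4.0.16 (TMM, filterByExpr, glmQLFTest, group the only term, Benjamini-Hochberg over 15528 genes; called at an adjusted p under 0.05). Named genes are the members, PAIP1, up to 4 called genes a list with the lowest adjusted p, all tested genes of the other tubulin and autoregulation lists and up to 3 pseudogenes; any other is said to be chosen after its values were seen. Alternatives used DESeq2 1.42.0 and limma 3.58.1 (log2 of FPKM plus 1 or 0.1). The fit was tested on simulated data. Windows of 100 bases were compared over GENCODE release 44 transcripts with Biopython 1.88 and Python 3.11.15. The coding ends of 2 alpha genes are not reported here.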

Additional observations from a re-analysis of the deposited data

How the results depend on the processing

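Every member kept the sign of its fold change under all alternatives but TUBB4B, whose log2 fold change ran between -0.00 and 0.11. TUBA1A ran from 1.32 to 1.52, the first TUBB3 entry from 0.85 to 0.96, and TUBA4A from -0.62 to -0.37; the small TUBB3 entry ran from 0.26 to 0.88 leaving out 1 library and was 0.25 without siPAIP1 replicate 3 and Ctrl replicate 2. The member median stayed between 0.21 and 0.41, the alpha ratio between 1.16 and 1.33 and the beta ratio between 1.15 and 1.29. The count of related genes called higher moved from 7 to 4 under limma-trend on both FPKM scales, to 3 under the replicate block, to 2 with a fold change of at least 2, to 11 with library totals and to 25 without siPAIP1 replicate 3 and Ctrl replicate 2. Leaving out 1 library gave 1 to 20. The count called lower was 1 with a fold change of at least 2, 9 without those 2 libraries and 1 to 7 leaving out 1 library. The share called of all genes tested is not given here for these settings, so these counts say nothing particular to the lists. The settings with library totals and without 2 libraries were chosen after the data were seen. Replicate numbers were not taken to pair the samples: the correlations of same-numbered deviations were 0.346, -0.374 and -0.17, and the replicate block gave a median of 0.29 and 2 genes called lower. The small TUBB3 entry and TPPP rest on few counts, which limits their precision.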
